A study of Saccharomyces cerevisiae with 16 samples.

Results

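The large (60S) subunit of the yeast ribosome is assembled from ribosomal RNA and the proteins encoded by the RPL genes and by RPP0, RPP1A, RPP1B, RPP2A and RPP2B. Its genes were chosen here by name alone: every row of the count tables named RPL and a number, with or without A or B, and the 5 RPP genes, with the mitochondrial MRPL genes left out. This gave 80 genes of the 5647 rows in all. The RefSeq annotation holds 81 names that fit the rule, and RPL21A was not analysed here. The 80 genes encode 46 proteins, and for 34 of these both an A gene and a B gene were measured.

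Messenger RNAs of ribosomal proteins are among the most abundant and most actively translated in growing yeast, and most of them have short coding sequences. Their genes are transcribed together by a circuit that includes Rap1, Fhl1, Ifh1 and Sfp1 and that responds to nutrients and stress. Most of the proteins are encoded by a pair of near-identical paralogs left by a whole-genome duplication. eIF3, the factor altered in these strains, is a many-subunit complex that binds the small ribosomal subunit and takes part in the recruitment of mRNAs and in the search for the start codon.

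Ribosome footprints (the stretches of mRNA that ribosomes protect from nuclease) and total mRNA were sequenced from 4 Saccharomyces cerevisiae strains, each grown as 2 cultures, which makes 16 libraries. In eIF3a/b Degron cells (YAJ34), TIF32 and PRT1, which encode eIF3a and eIF3b, are the degron alleles tif32-td and prt1-td under the copper-regulated CUP1 promoter, and UBR1, a ubiquitin ligase that recognizes degrons, is driven by the galactose-inducible GAL1 promoter. Their WT (YAJ3) has native TIF32 and PRT1, the same GAL1-driven UBR1 and the plasmid pRS316. Both strains carry gcn2::hisG, and both were moved from raffinose medium with copper at 25 °C to raffinose and galactose medium with the copper chelator BCS at 36 °C for 90 min. In eIF3i DDKK cells, a tif34Δ strain (H450) carries TIF34, which encodes eIF3i, on a plasmid as TIF34-D207K-D224K-HA, and its WT carries TIF34-HA on the same kind of plasmid. Both of these were moved from synthetic complete medium at 30 °C to the same medium at 37 °C for 30 min. All cultures, WT included, were therefore heat-shifted, and cycloheximide was added before harvest. Each mutant is 1 strain construct, and medium, temperature, time and genotype all differ between the Degron and DDKK backgrounds, so each mutant was compared with its own WT.

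The libraries held 4389212 to 12164617 counted mRNA reads and 5136423 to 29982592 counted footprints, and the mutant libraries were the smaller ones in every comparison with their WT. The least counted large-subunit gene still had 396 mRNA reads in its shallowest library (RPL41A) and 1005 footprints (RPL22B). Levels are given as scaled CPM, that is, counts divided by the library size after TMM scaling over the 8 libraries of a background, and translational efficiency (TE) is the scaled footprint level divided by the scaled mRNA level of the same culture. These are shares of what was sequenced, so neither a change in total translation nor in the amount of mRNA per cell can be seen in them. The authors measured a marked loss of polysomes relative to monosomes in both mutants. They propose that most mRNAs were likely translated less in absolute terms. A gene said to rise here rose relative to the other genes. As a check of the labels, TIF32 had 124 and 127 footprint scaled CPM in Degron cells, against 389 and 401 in WT, and PRT1 had 167 and 174, against 522 and 537 in WT. Their mRNA was not lower. TIF32 had 523 and 513 mRNA scaled CPM in Degron cells, against 389 and 398 in WT, and PRT1 had 442 and 450, against 374 and 401 in WT. The substitutions in TIF34 cannot be seen in counts per gene. The row YDR445C took 8.79% to 29.9% of the reads of every mRNA library and under 0.1% of every footprint library.

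Sequences around the start codon are shown for the genes whose TE changes were the largest in Degron cells and for the RPL22 pair, whose copies differed. Each run reads 5′ to 3′, holds the 12 bases before the start codon, the start codon in capitals and the next codon, and comes from the RefSeq assembly R64.
RPL41A (chromosome IV, 130479 to 130496, minus strand): gattcaatcgaaATGaga
RPL41B (chromosome IV, 221796 to 221813, minus strand): acttaattccaaATGaga
RPL39 (chromosome X, 75921 to 75938, plus strand): agatagatcaacATGgct
RPL29 (chromosome VI, 223432 to 223449, minus strand): cttctccagaaaATGgct
RPL3 (chromosome XV, 444674 to 444691, plus strand): caacaatcaatcATGtct
RPP1A (chromosome IV, 310117 to 310134, minus strand): taacaagaagaaATGtct
RPL1A (chromosome XVI, 135778 to 135795, plus strand): agtcgtccaaaaATGtcc
RPL1B (chromosome VII, 254629 to 254646, plus strand): acatatcataaaATGtct
RPL22A (chromosome XII, 263182 to 263199, plus strand): gattaagaaacaATGgcc
RPL22B (chromosome VI, 64927 to 64944, minus strand): atatcaaccacaATGgct

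The base 3 before the start codon is the one that most affects start codon choice in yeast, with A the favoured base. It was A in 64 of the 80 genes (80.0%), G in 14, C in 1 and T in 1, and it was A in 60.9% of the 5446 rows of the table for which it was known. These are bases of the genome. Where an intron ends just before the start codon, they are not those of the mRNA, and such introns were not considered. The single C belongs to RPL41B, and among the genes shown above RPL41A and RPP1A have G. RPL41A and RPL41B, with the largest TE increase in Degron cells, thus have neither copy with A. RPL3, with the largest TE decrease, has A, and RPP1A, with the next largest, has G. The median log2 TE change in Degron cells was 0.26 for the 64 genes with A and 0.19 for the 14 with G.

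The sequence also limits what can be measured of the RPL41 pair, whose product is a tiny basic protein at the interface of the subunits. Counts leave out the first 15 and the last 5 codons, which leaves 18 bases of the RPL41 coding sequence, and these are the same in both copies (chromosome IV, 130422 to 130439 and 221739 to 221756, both on the minus strand).
RPL41A and RPL41B, counted part: aagagacggaaggtgaga
Both rows had the same footprint counts in all 8 footprint libraries. Of 5175 rows in the Degron table and 5183 in the DDKK table with at least 128 footprints over 4 libraries, no others had identical footprint counts. How reads that match several genes were counted is not given in the sources used here, and equal counts in every library are what counting each such read on both copies would give. RPL41A and RPL41B are therefore 1 measurement of footprints and TE, although the counts of genes below include both rows. Of windows of 28 bases in the counted sequence, 90.6% were shared between copies for RPL1, 82.3% for RPL4A and 71.8% for RPL11A, so for these pairs a difference between A and B would also be damped. RPL22A and RPL22B shared none.

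The share of footprints that fell on the 80 genes was the plainest difference between the strains. In Degron cells they took 21.0% and 20.4% of all counted footprints, against 7.18% and 7.55% in WT, and 8.82% and 8.51% of all counted mRNA reads, against 4.17% and 4.37% in WT. In DDKK cells they took 16.8% and 14.8% of footprints, against 8.90% and 7.89% in WT, and 7.53% and 6.43% of mRNA reads, against 4.20% and 4.51% in WT. In all 4 comparisons both mutant cultures lay above both WT cultures, and the gap in percentage points was wider for footprints than for mRNA. Reads that match both copies of a pair may be counted on each in these shares. The 95% Wilson interval of the highest share ran from 20.9% to 21.0%, and such intervals cover counting error only. With 2 cultures a strain, an exact two-sided permutation test of a single value cannot go below p = 0.333, so no p is given. Without the row YDR445C, whose share of mRNA reads moved between DDKK libraries, the mRNA shares were 9.56% and 8.70% in DDKK cells, against 5.99% and 5.46% in WT. The 56 small-subunit (RPS) genes showed the same order, with 14.8% and 14.3% of footprints in Degron cells, against 4.54% and 4.84% in WT.

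**Figure D1:**
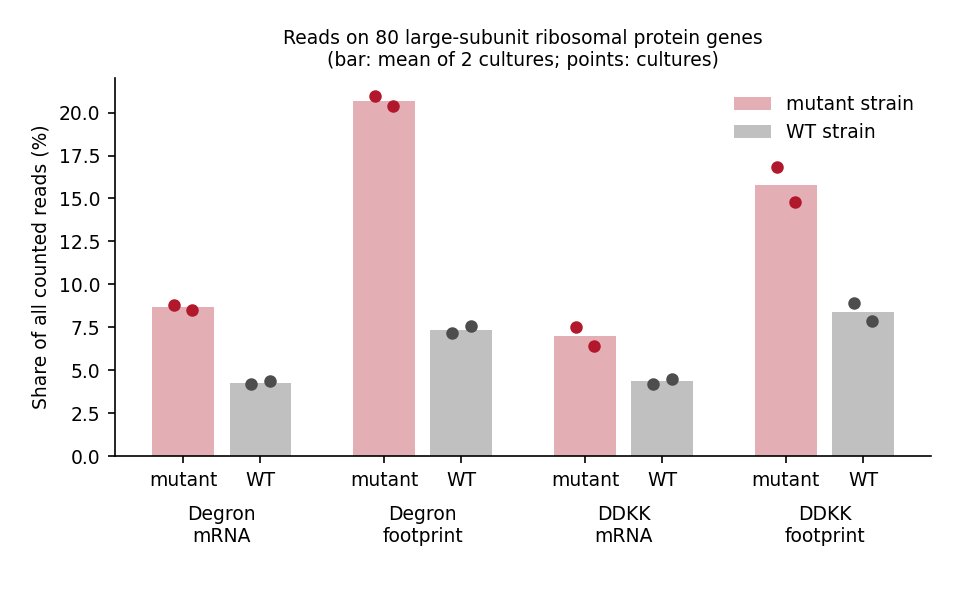
Share of all counted reads (%) on the 80 large-subunit genes, for mRNA and footprints of each background, mutant left of WT. Bars are means of 2 cultures and points are the cultures; Degron footprints stand at 21.0% and 20.4%, against 7.18% and 7.55% in WT.

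In WT cells the genes already differed among themselves. Per kilobase of counted coding sequence, mRNA of the Degron WT strain had a median of 902 scaled CPM, from 271 for RPL15B to 3786 for RPL41A, and that of the DDKK WT strain had a median of 1118, from 260 for RPL22B to 3188 for RPL41B. The RPL41 levels rest on 18 counted bases that are the same in both copies, so mRNA reads of 1 copy may be counted on both. RPL10, which is added to the subunit in the cytoplasm as one of its last proteins, and RPL28, the site of mutations that give cycloheximide resistance, also stood near the top in both WT strains. The levels of the 2 WT strains ran in a similar order (Spearman's rho 0.951 over 80 genes).

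TE of the 80 genes had a median of 3.02 in the Degron WT strain, where all genes tested had 0.99, and of 2.63 in the DDKK WT strain, where all genes had 1.02. RPL15B, 1 of the 2 genes for a protein deeply embedded in the rRNA, was highest in the Degron WT strain (5.82 and 5.87 in its 2 cultures), and RPL39 in the DDKK WT strain (6.76 and 7.38). RPL22B was lowest in both, with 0.69 and 0.78 in the first and 1.13 and 0.94 in the second, below every other large-subunit gene. RPL22B has an intron, and whether intron reads entered the counts is not given in the sources used here. RPL15B shares 24.9% of its windows with RPL15A, which had 8781 mRNA reads in WT replicate 1 of the Degron background, against 1746 for RPL15B. Reads of RPL15A may be counted on RPL15B too, and what part this had in its level and TE was not tested.

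In Degron cells, mRNA of the large-subunit genes was higher almost throughout. Of the 80 genes, 78 rose and none fell at an adjusted p under 0.05 (edgeR quasi-likelihood test, Benjamini-Hochberg over the 5306 genes tested), where 44.3% of all genes tested rose and 30.8% fell. The median log2 change was 1.03, against 0.12 over all genes. Both mutant cultures lay above both WT cultures for 78 genes, as they did for 50.6% of all genes tested. All 56 small-subunit genes rose as well, with a median of 1.04.

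RPL9A, 1 of the 2 genes for a protein near the base of the stalk, had the largest mRNA change, with 1109 and 1084 scaled CPM in Degron cells, against 355 and 370 in WT. That is a log2 change of 1.60 ± 0.07 (SE, here and below). RPL22B (1.59 ± 0.07) and RPL15A (1.56 ± 0.07) followed. At the other end, RPL41A had 78.6 and 61.7 in Degron cells, against 66.1 and 70.2 in WT, and RPL41B 75.9 and 63.2 in Degron cells, against 64.8 and 70.4 in WT. These were the 2 genes that did not pass, both at 0.04 ± 0.09 (adjusted p = 0.69), and their cultures overlapped. Without mutant replicate 2 the change of RPL41A was 0.22 and passed, and without mutant replicate 1 it was -0.15. Among the genes that rose, RPP1B, which encodes an acidic stalk protein, moved least (0.41 ± 0.07).

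Footprints rose for all 80 genes, where 41.8% of all genes tested rose and 41.3% fell. The median log2 change was 1.32, against 0.01 over all genes, and the 2 mutant cultures lay above both WT cultures for each of the 80, as they did for 45.5% of all genes. RPL22B had the largest change, with 346 and 339 footprint scaled CPM in Degron cells, against 70.7 and 73.2 in WT (2.25 ± 0.07). RPP1A had the smallest, with 590 and 709 in Degron cells, against 510 and 526 in WT (0.33 ± 0.08, adjusted p = 5.0e-04).

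TE, which asks whether footprints changed more than mRNA, rose for 44 of the 80 genes and fell for 6 in Degron cells, where 26.8% of all genes tested rose and 33.1% fell. The other 30 did not pass the test. The median log2 TE change was 0.25, against -0.04 over all genes, and the changes ran from -0.80 to 1.47. TE of both mutant cultures was above both WT cultures for 61 genes and below for 10, where 37.4% of all genes lay above and 42.9% below. Across every scaling, filter, tool and left-out culture that was tried, the median of the 80 genes stayed 0.27 to 0.32 above that of all genes. The zero of the scale moved, however: with scaling by library size and no TMM, all genes together had a median of 0.28, and 71 of the 80 genes then rose and 2 fell. Of the 44 increases, 32 were called in all 13 alternatives, and of the 6 decreases only that of RPL3 was. Small-subunit genes had 39 of 56 increases and 1 decrease, with a median of 0.31.

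**Figure D2:**
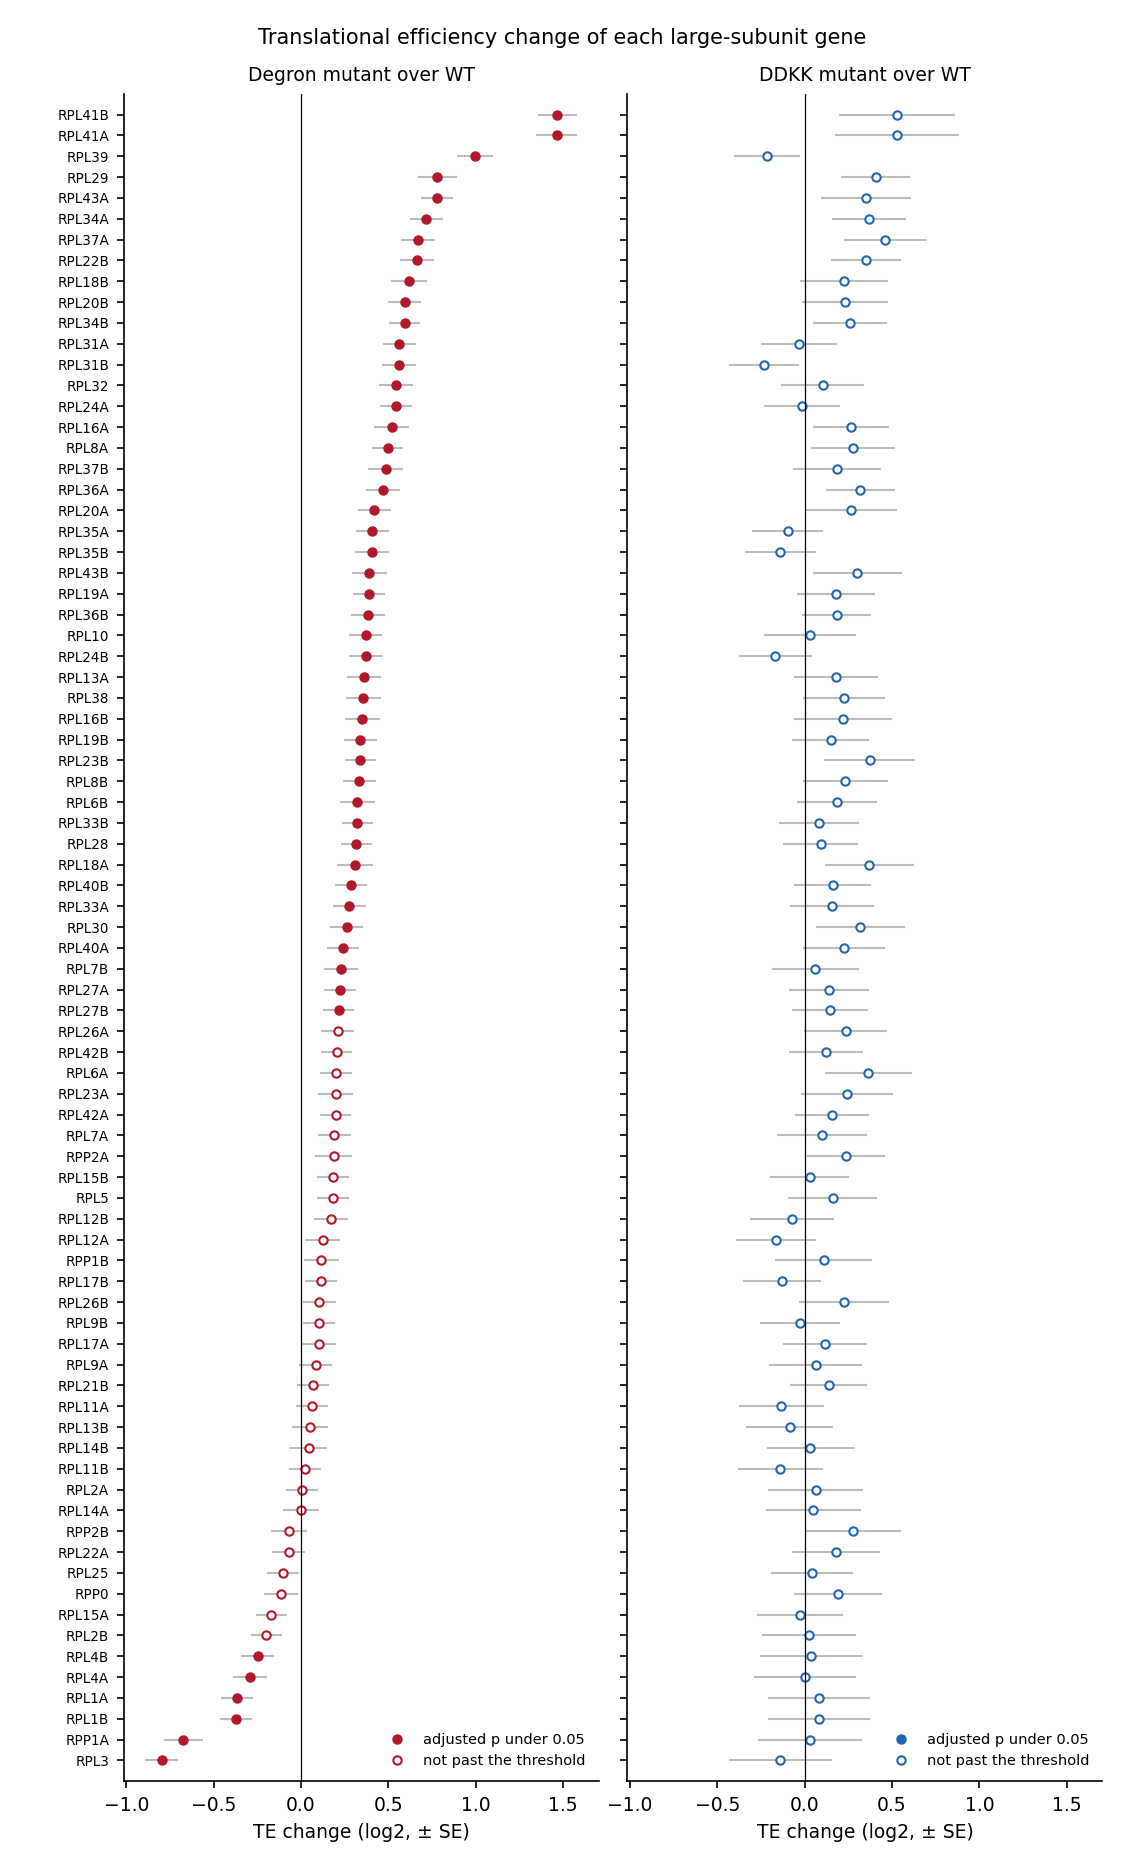
Log2 TE change of each large-subunit gene, mutant over WT, with its SE, for Degron (left) and DDKK (right); genes are ordered by the Degron change, from RPL41B at 1.47 to RPL3 at -0.80. Filled points are past an adjusted p of 0.05, which 50 genes reached in Degron cells and none in DDKK cells.

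The genes for the smallest proteins led the TE increases. RPL41A footprints were 1038 and 974 scaled CPM in Degron cells, against 351 and 358 in WT, while its mRNA overlapped between strains as given above. Its TE was 13.2 and 15.8 in Degron cells, against 5.31 and 5.10 in WT, a log2 change of 1.46 ± 0.12 (adjusted p = 6.7e-10), and RPL41B gave 1.47 ± 0.11. This rests on 18 counted bases. RPL39, whose small product lines the exit tunnel, had TE of 10.3 and 9.66 in Degron cells, against 5.27 and 4.79 in WT. Both its mRNA (205 and 207 in Degron cells, against 111 and 129 in WT) and its footprints (2104 and 2000 in Degron cells, against 583 and 618 in WT) were higher, footprints more so, and the TE change was 0.99 ± 0.10 (adjusted p = 3.5e-08). RPL29, a small protein that yeast can do without, had TE of 4.34 and 4.86 in Degron cells, against 2.76 and 2.58 in WT (0.78 ± 0.11), and RPL43A, for a zinc-binding protein, also had 0.78 ± 0.09. For none of these genes did the cultures overlap in TE.

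RPL3 had the largest TE decrease. It encodes the longest of the 46 proteins by coding length, one that reaches towards the peptidyl transferase centre. Its mRNA rose more than that of most members, to 4048 and 3780 scaled CPM in Degron cells, against 1508 and 1582 in WT, and its footprints rose less, to 5496 and 5477 in Degron cells, against 3734 and 3795 in WT. TE was therefore 1.36 and 1.45 in Degron cells, against 2.48 and 2.40 in WT, with no overlap and a log2 change of -0.80 ± 0.09 (adjusted p = 1.9e-07). Of the other genes for proteins at the catalytic centre or needed for joining of the subunits, RPL10 rose (0.37 ± 0.09, adjusted p = 0.0019), and RPL2A (0.01 ± 0.09) and RPL2B (-0.20 ± 0.09) did not pass.

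Among the stalk genes, whose products recruit the elongation factors to the ribosome, none of 7 rose in TE and 1 fell, in edgeR and in DESeq2 alike, with 1 and 3 of them at an unadjusted p under 0.05. Of all genes tested, 26.8% rose and 33.1% fell in edgeR. RPP1A, which encodes an acidic P1 protein, had TE of 1.46 and 1.92 in Degron cells, against 2.78 and 2.59 in WT. The cultures did not overlap, and the change was -0.67 ± 0.11 (adjusted p = 2.0e-05). RPP0, the stalk protein that anchors the others, had -0.12 ± 0.10, and RPP1B, RPP2A and RPP2B had 0.12 ± 0.10, 0.19 ± 0.11 and -0.07 ± 0.11. RPL12A and RPL12B, which encode the protein at the stalk base, had 0.12 ± 0.10 and 0.17 ± 0.10. All 7 rose in mRNA, with a median of 0.84, as did 44.3% of all genes tested.

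The protein of the L1 stalk, on the opposite side of the subunit, is encoded by RPL1A and RPL1B, and both fell in TE (-0.37 ± 0.09 each, adjusted p = 0.0017 and 0.0015). RPL1B had TE of 1.49 and 1.55 in Degron cells, against 1.91 and 2.02 in WT, so the cultures did not overlap. RPL4A (-0.29 ± 0.10) and RPL4B (-0.25 ± 0.10), whose product has a loop that reaches into the exit tunnel, fell by the least of the 6. The call of RPL4A was lost without WT replicate 1 and without mutant replicate 1, and that of RPL4B was lost without these and without mutant replicate 2. Reads of both pairs are largely shared between copies, so the decreases of RPL1 and RPL4 count as 2 observations rather than 4. With scaling by library size and no TMM, none of the 4 passed, and the values of RPL4A and RPL4B were 0.02 and 0.06, below the median of all genes under that scaling.

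The 3 genes for proteins that bind 5S rRNA did not pass in TE in edgeR, also at an unadjusted p under 0.05, while DESeq2 called RPL5 higher. The edgeR values were 0.18 ± 0.09 for RPL5, 0.06 ± 0.09 for RPL11A and 0.02 ± 0.09 for RPL11B, and their mRNA rose by 1.09 to 1.23. Of 16 genes for proteins that line or ring the exit tunnel, 8 rose and 2 fell, with a median of 0.28. RPL25, at the tunnel mouth where the signal recognition particle docks, had -0.10 ± 0.09, and RPL31A and RPL31B, at the rim, both had 0.56 (SE 0.09 and 0.10). RPL40A and RPL40B, whose product is made as a fusion with ubiquitin, rose by 0.24 ± 0.09 and 0.29 ± 0.09, although the call of RPL40A was lost without any 1 of the 4 cultures and that of RPL40B without mutant replicate 1 and without WT replicate 2. RPL28 rose by 0.32 ± 0.09. RPL30, which binds its own transcript and represses its splicing, rose by 0.26 ± 0.10, a call that was kept only without mutant replicate 1. Of 15 genes for proteins that cells can live without, 10 rose (66.7%, to be read against the same shares) and none fell, with a median of 0.54. This list holds both RPL41A and RPL41B, which are 1 measurement of TE. All these lists were chosen with earlier results of these data known.

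**Figure D3:**
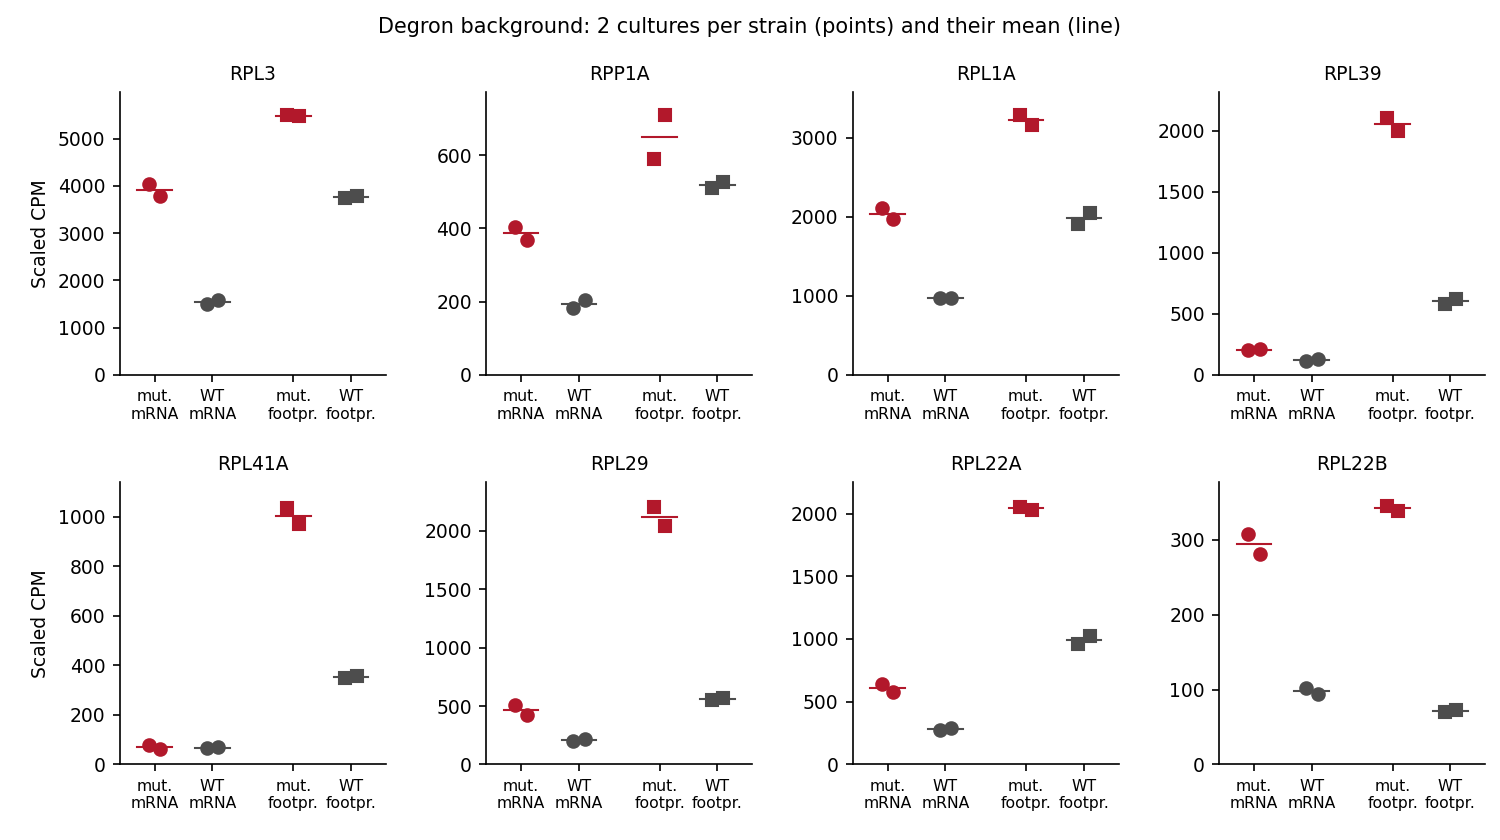
Scaled CPM of 8 large-subunit genes in the Degron background, on linear axes from 0, for mRNA (circles) and footprints (squares), mutant left of WT; points are the 2 cultures and lines their mean. RPL3 footprints stand at 5496 and 5477 in mutant cultures, against 3734 and 3795 in WT, while RPL41A mRNA overlaps between strains.

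TE change in Degron cells was lower for longer coding sequences (Spearman's rho -0.482 over 80 genes, -0.441 without the RPL41 pair). The same value over all 5264 genes with a known length was -0.262, and over the 56 small-subunit genes -0.274. Over all genes tested, 26.8% rose and 33.1% fell. Of 33 genes with under 400 coding nucleotides, 24 rose and 1, RPP1A, fell, with a median of 0.39. Of 28 genes with 400 or more and under 600 nucleotides 14 rose and none fell (median 0.21), and of 19 genes with 600 or more 6 rose and 5 fell (median 0.05). These are descriptions over genes, which are not independent replicates, and the points share the same 8 libraries.

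The presence of an intron within the coding sequence moved with the TE change as well. Introns before the start codon were not counted. Of 52 genes with an intron, 34 rose and none fell (median 0.31), and of 28 without one, 10 rose and 6 fell (median 0.15). The shares over all genes tested were 26.8% and 33.1%. The genes without an intron were longer, with a median of 550.5 coding nucleotides against 411 for those with one, so length and intron cannot be told apart by these counts. Within the genes with an intron rho with length was -0.378, and within those without it -0.534. In genes with an intron the deposited length of the counted region spans the intron in 248 of 249 rows of the table, so the codons left out at each end may not be the same as in other genes. What part this had in the result was not tested. Among the 53 genes with under 25% of windows shared with another gene, 34 rose and 2 fell, and rho was -0.369.

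**Figure D4:**
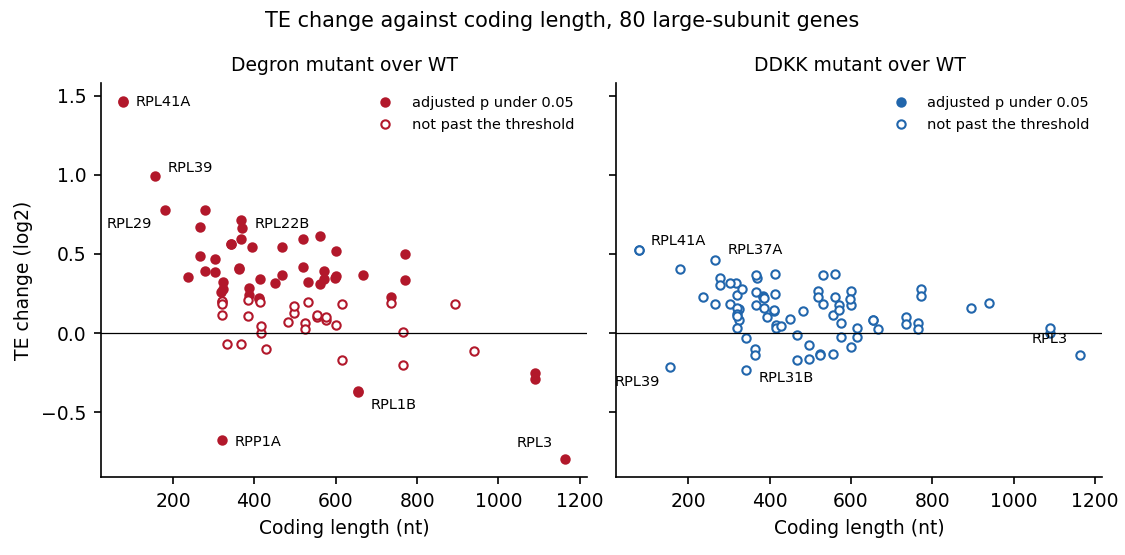
Log2 TE change of the 80 large-subunit genes, mutant over WT, against coding length in nucleotides, for Degron (left) and DDKK (right). Spearman's rho is -0.482 for Degron and -0.330 for DDKK; RPP1A lies far below other short genes in the Degron plot, at -0.67, and RPL31B and RPL39 are the lowest in the DDKK plot, at -0.23 and -0.21.

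In DDKK cells mRNA of the large-subunit genes was again higher than in WT, with a smaller median change and larger standard errors than in the Degron background. The difference in medians was not tested. Standard errors of the mRNA change of the 80 genes ran from 0.14 to 0.26, against 0.06 to 0.09 in the Degron background. Of the 80 genes, 34 rose in mRNA and none fell, where 16.5% of all genes tested rose and 12% fell. The median was 0.46, against 0.11 over all 5244 genes. Both mutant cultures lay above both WT cultures for 77 of the 80 genes, and for 40.8% of all genes. A fit with a replicate block called 71 increases, although nothing in the labels says that equal replicate numbers pair the cultures. The count of 34 depended on single cultures: without WT replicate 1 it was 1, without WT replicate 2 it was 3, without mutant replicate 1 it was 28, and without mutant replicate 2 it was 52. Only RPL39 kept the call in all of these, with 204 and 198 scaled CPM in DDKK cells, against 93.5 and 88.3 in WT (1.14 ± 0.14, adjusted p = 5.2e-04).

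After RPL39, RPL22B (0.94 ± 0.14) and RPL15B (0.92 ± 0.16) rose most in mRNA. The lowest were RPL26A (0.20 ± 0.17), RPP1A (0.21 ± 0.21) and RPL6A (0.21 ± 0.18), none of which passed. None of the 7 stalk genes passed in edgeR or in DESeq2 (median 0.36), with 4 and 3 of them at an unadjusted p under 0.05, all 3 genes for 5S rRNA binding proteins rose (0.65 to 0.66), and of the 15 genes for dispensable proteins 8 rose (median 0.63). Small-subunit genes had 30 of 56 increases, with a median of 0.54, and 16.5% of all genes tested rose in mRNA.

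Footprints rose for 62 of the 80 genes in DDKK cells and fell for none, where 26.2% of all genes tested rose and 26.2% fell. The median was 0.61, against 0.01 over all genes. The count was 27 without WT replicate 1, 9 without WT replicate 2, 53 without mutant replicate 1 and 79 without mutant replicate 2. The 9 genes called in all of them were RPL8A, RPL15B, RPL22B, RPL28, RPL29, RPL34A, RPL39, RPL41A and RPL41B. RPL22B was again the highest, with 249 and 199.5 footprint scaled CPM in DDKK cells, against 95.6 and 87.6 in WT (1.29 ± 0.14), and RPL12A the lowest, with 1376 and 1124 in DDKK cells, against 1203 and 1082 in WT (0.13 ± 0.16). RPL12A cultures of the 2 strains overlapped.

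No large-subunit gene passed the TE test in DDKK cells, where 1.14% of all genes tested rose and 2.88% fell (edgeR). None had an unadjusted p under 0.05 either. While 4 rose in a fit of all 16 libraries, which pools the spread of both backgrounds, DESeq2 also called none. The median was 0.15, against -0.08 over all genes, and it was 0.084 without mutant replicate 1 and 0.27 with scaling by library size. Set against the median of all genes it was 0.17 to 0.25 higher across the alternatives. TE of the mutant cultures lay above both WT cultures for 40 genes, below for 6, and overlapped for 34, where 22.2% of all genes lay above and 38.2% below. Standard errors here ran from 0.19 to 0.36, against 0.09 to 0.12 in the Degron background. The highest values were 0.53 for RPL41A (SE 0.36) and RPL41B (SE 0.33), 0.46 ± 0.23 for RPL37A and 0.41 ± 0.20 for RPL29. The lowest were -0.23 ± 0.20 for RPL31B, -0.21 ± 0.19 for RPL39 and -0.17 ± 0.21 for RPL24B, which encodes a protein of a bridge between the subunits. The 2 WT cultures of RPL41A were far apart (6.42 and 3.94), and the mutant ones were 5.86 and 8.44.

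Nor did the genes listed by role pass in DDKK cells. RPL3 had -0.14 ± 0.30, RPL5 0.16 ± 0.25, RPL10 0.03 ± 0.26, RPL11A -0.13 ± 0.24 and RPL11B -0.14 ± 0.24. RPL25, RPL28 and RPL30 had 0.04 ± 0.23, 0.09 ± 0.22 and 0.32 ± 0.26, and RPL40A and RPL40B had 0.22 ± 0.23 and 0.16 ± 0.22. The stalk genes ran from -0.16 (RPL12A) to 0.28 (RPP2B). RPL22A had 0.18 ± 0.25 and RPL22B 0.35 ± 0.20.

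All 80 TE changes of both backgrounds could be set side by side, since the backgrounds share no library. As a description over genes, they were related (Spearman's rho 0.446 over 80 genes), less closely than over all 5228 genes tested in both (0.634). The difference itself, Degron minus DDKK, was tested in a fit of all 16 libraries. This fit pools the spread of both backgrounds, although their common coefficients of variation between cultures were 0.05 (Degron) and 0.12 (DDKK). The difference passed for 2 of the 80 genes, RPL39 (1.24 ± 0.20, adjusted p = 0.0073) and RPL31B (0.82 ± 0.22, adjusted p = 0.0496), where 3.67% of all genes passed. RPL39 TE in DDKK cells was 5.73 and 6.44, against 6.76 and 7.38 in WT, opposite to its order in the Degron background and without overlap. The DDKK change alone did not pass the TE test, and 38.2% of all genes lay below WT in this way. Footprints of RPL39 rose in both mutants, to 1167 and 1276 in DDKK cells, against 632 and 652 in WT, so it was the relation of the footprint change to the mRNA change that differed. RPL31B TE was 5.48 and 5.46 in Degron cells, against 3.82 and 3.62 in WT, without overlap. In DDKK cells it was 3.43 and 3.13, against 4.42 and 3.37 in WT, and the cultures overlapped.

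The A and B copies of 34 proteins were compared next. For most pairs their counts moved alike: the median absolute difference between copies in the log2 change of Degron cells was 0.07 for mRNA, 0.08 for footprints and 0.09 for TE. The 34 pairs include RPL41, with identical footprint counts, and pairs that share most windows, such as RPL35 (90.8%) and RPL1 (90.6%). Shared reads would make such copies look alike, and what part this had in the medians was not tested. A difference between copies in mRNA change passed for 6 of the 34 pairs in Degron cells, in footprint change for 5 and in TE change for 1. Among all 60 A/B pairs tested, these 34 included, the shares that passed were 11.7%, 18.3% and 1.67%. In DDKK cells a difference passed for 1 of the 34 pairs in footprint change and for none in mRNA or TE. Among all 60 pairs the shares there were 3.33%, 0% and 0%. At an unadjusted p under 0.05 there was 1 pair in DDKK mRNA, RPL22, and still none in TE. These values test each copy against its pair and combine both by Simes' method. A test of the pair as a whole, added after the data were seen, called 8 of the 34 pairs in mRNA, 10 in footprints and 3 in TE in Degron cells. Of all 60 pairs it called 21.7%, 33.3% and 6.67%. In DDKK cells it called 1 of the 34 pairs in footprints and none in mRNA or TE, and of all 60 pairs 3.33%, 1.67% and 0%.

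RPL22 was the 1 pair called in TE. It encodes a protein at the exit tunnel rim that cells can do without, and RPL22A carries most of its expression. RPL22A TE was 3.20 and 3.53 in Degron cells, against 3.52 and 3.53 in WT, so its cultures did not separate. RPL22B TE was 1.12 and 1.21 in Degron cells, against 0.69 and 0.78 in WT, which did not overlap. The A minus B difference was -0.73 ± 0.14 (adjusted p = 3.7e-06 over the 60 pairs), and it stayed between -0.82 and -0.65 with any 1 culture left out. The copies also differed in mRNA change (-0.48 ± 0.10) and in footprint change (-1.21 ± 0.10), and RPL22 was the pair called in DDKK footprints (-0.70 ± 0.23, adjusted p = 0.018). RPL22A therefore made up less of the pair in both mutants: 85.6% and 85.7% of the pair's footprints in Degron cells, against 93.2% and 93.3% in WT, and 87.3% and 87.7% in DDKK cells, against 92.4% and 91.3% in WT.

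RPP1 had the widest gap in TE change in Degron cells, with RPP1A at -0.67 and RPP1B at 0.12, a difference of -0.79 ± 0.15. It missed the threshold in the Simes test (adjusted p = 0.080) and passed in the test of the pair as a whole (0.0017). RPL15 did likewise, with -0.35 ± 0.13 (0.16 and 0.010). Its copies share 24.9% of windows, and what part shared reads had in this gap was not tested. In RPL43 the A copy was 0.39 ± 0.14 above the B copy, which passed neither (0.42 and 0.060). The widest TE gaps in DDKK cells, RPL37 (0.28 ± 0.34), RPL13 (0.26 ± 0.34), RPL17 (0.24 ± 0.33) and RPL31 (0.20 ± 0.30), were all within their SE.

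In mRNA, the copies of RPL9 and RPL8 went opposite ways within their pairs. RPL9A made up 55.9% and 53.5% of RPL9 mRNA in Degron cells, against 40.8% and 42.3% in WT, so the leading copy changed (A minus B 0.76 ± 0.10). RPL8A, in contrast, was 36.4% and 37.3% of RPL8 mRNA in Degron cells, against 49.0% and 46.3% in WT (-0.64 ± 0.09). RPP1 (0.59 ± 0.11), RPL18 (0.38 ± 0.11), RPL15 (0.38 ± 0.09) and RPL22 were the other pairs called. RPL8 and RPL9 were also called in footprints (-0.48 ± 0.09 and 0.74 ± 0.09), where RPL43 (0.47 ± 0.10) and RPL13 (0.39 ± 0.10) joined them.

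**Figure D5:**
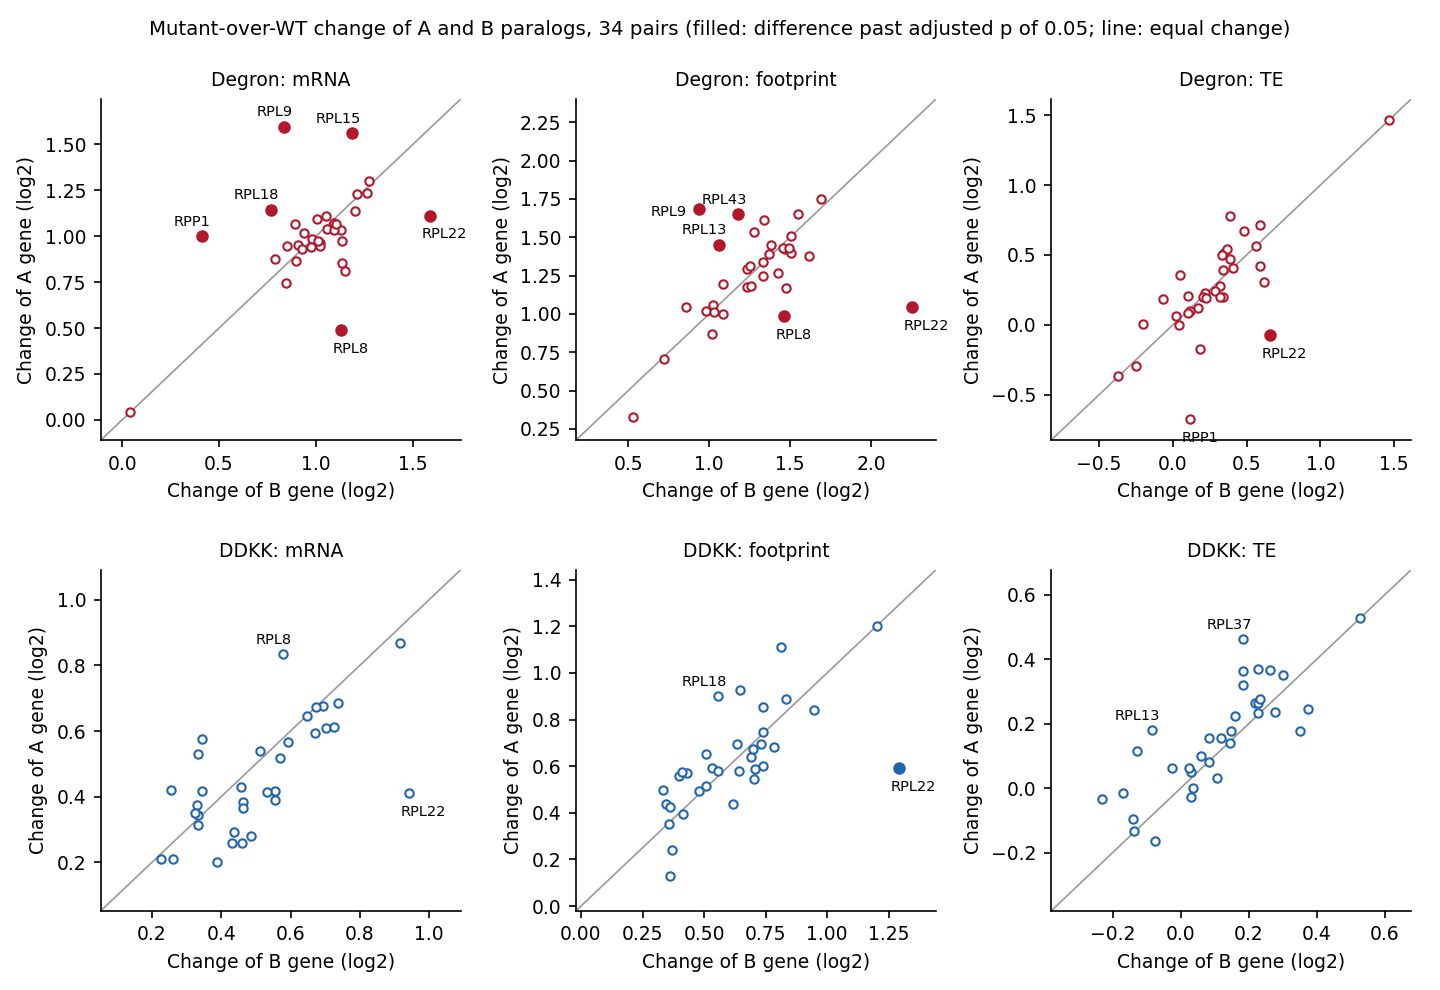
Log2 change of the A gene against that of the B gene for 34 pairs, mutant over WT, for mRNA, footprints and TE (columns) in Degron (top) and DDKK (bottom). Points on the line changed equally; filled points are pairs whose difference passed, with RPL22 the only one in TE of Degron cells and in footprints of DDKK cells.

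When the counts of each A and B pair were summed, so that the split of reads between copies no longer mattered, 25 of the 46 proteins rose in TE and 4 fell in Degron cells, where 26.5% of all genes and summed pairs rose and 33.3% fell. The 4 were RPL3 (-0.80 ± 0.10), RPL1 (-0.37 ± 0.10), RPP1 (-0.29 ± 0.10) and RPL4 (-0.27 ± 0.10). RPP1 lost the call without mutant replicate 1 and without WT replicate 1, and RPL4 without these and without mutant replicate 2, so that 2 decreases were called without mutant replicate 1 and 2 without WT replicate 1. With scaling by library size and no TMM, 40 rose and RPL3 alone fell, and with any 1 culture left out 20 to 22 rose. RPL41 (1.47 ± 0.12), RPL39 (1.00 ± 0.11) and RPL29 (0.78 ± 0.12) were again the highest. In DDKK cells none of the 46 passed in edgeR or DESeq2, with 1 at an unadjusted edgeR p under 0.05, where 1.23% of genes and summed pairs rose and 2.31% fell.

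Of 10 genes for regulators of the transcription of ribosomal protein and ribosome assembly genes (RAP1, FHL1, IFH1, SFP1, HMO1, CRF1, SCH9, STB3, DOT6 and TOD6), 8 rose and 1 fell in mRNA in Degron cells, with a median of 0.45, where 44.3% of all genes rose and 30.8% fell. In TE 3 of the 10 rose and 6 fell, with a median of -0.49, where 26.8% of all genes rose and 33.1% fell, so the share that rose was close to that of all genes. Of the 5 genes for chaperones that escort particular large-subunit proteins (ACL4 for Rpl4, RRB1 for Rpl3, SQT1 for Rpl10, SYO1 for Rpl5 and Rpl11, and BCP1 for Rpl23), all rose in mRNA (median 0.82), and 1 rose and 1 fell in TE, to be read against the same shares, and the median TE change was 0.09. In DDKK cells the median TE change was -0.27 for the regulators and -0.22 for the chaperones. None of these passed in edgeR or in DESeq2, while 4 regulators and 1 chaperone had an unadjusted edgeR p under 0.05.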

How the data were processed

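The authors deposited unnormalized read counts per gene for 8 libraries of each background, counted without the first 15 and last 5 codons, per their methods, with the length of the counted region. The submitters' processing notes name CASAVA 1.8, Bowtie2 2.2.6.0, TopHat2 2.1.0, DESeq2 and sacCer3. How reads matching several genes, or introns, were counted is not given in the sources used here. Such reads can be counted on both copies of a pair. A deposited DESeq2 table of TE values, changes and p-values was not used.

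Genes with at least 128 mRNA reads over the 4 mRNA libraries of a background, the minimum in the methods, were fitted with edgeR 4.0.16 (R 4.3.3): TMM over 8 libraries, quasi-likelihood F-test, assay, genotype and their interaction, which is the TE change. All 80 large-subunit genes passed. The fit had no term that ties the mRNA and footprint libraries of 1 culture together, and a fit with such a term is among the alternatives. Each SE of a change was taken from the change and the square root of its F statistic. For an A minus B difference, the SE was the root of the sum of both squared SEs, as if the copies were independent. The p-values of these differences came from the paired comparison of copies described below and do not rest on this SE. P-values were Benjamini-Hochberg adjusted over all genes, threshold 0.05. All 16 libraries were fitted together for the difference between backgrounds, which pools their spread, although it may differ between them. A and B copies were compared with diffSpliceDGE over 60 pairs. Both per-copy p-values were combined by Simes' method, and this combination was chosen after the data were seen. DESeq2 1.42.0 and other scalings, filters, blocks and left-out cultures were alternatives. The TE test and the A against B test in TE were run on simulated counts with known changes. The other tests were not checked in this way. Labels call cultures biological replicates, and 2 per strain limit the precision. Python 3.11.15, pandas 2.3.3, scipy 1.17.1 and matplotlib 3.10.9 were used for summaries. Sequences and gene names came from RefSeq R64, and the deposited length equalled the coding length minus 60 in 5196 of 5201 genes without an intron.

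Genes named with values were the 3 highest and 3 lowest in TE and in mRNA change of each background, the 4 pairs with the largest differences, a list by role (named in the report), and the highest and lowest in WT. Other genes are named where a count singles them out, and these were chosen after their values were seen. The members, lists and tests were chosen with earlier results of these data known.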

Additional observations from a re-analysis of the deposited data

Results flagged for a closer look

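The TE change of RPL39 differed between the backgrounds by 1.24 (Degron minus DDKK, log2, SE 0.20, adjusted p = 0.0073 by the edgeR interaction test over all 16 libraries). That of RPL31B differed by 0.82 (SE 0.22, adjusted p = 0.0496). Both came from the test of the difference itself, in which medium, temperature, time and genotype differ together and cannot be told apart. That test pools the spread of both backgrounds, and 3.67% of all genes passed it. In RPL39 the 2 mutant cultures lay above both WT cultures in TE in the Degron background and below them in the DDKK background. The DDKK change alone did not pass the TE test. In that background 38.2% of all genes tested had both mutant cultures below both WT cultures.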

How the results depend on the processing

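Beside the fits of the report, 13 alternatives were run for TE and 12 for mRNA and footprints, and a threshold of 0.01. No direction that passed the test in the 80 genes turned round and passed the other way. With scaling by library size alone, Degron TE had 71 increases, 2 decreases and a median of 0.56, Degron mRNA a median of 0.96 and Degron footprints of 1.56. DDKK TE then had a median of 0.27, DDKK mRNA 67 increases and a median of 0.64, and DDKK footprints a median of 0.91, while summed paralogs in Degron cells had 40 increases and 1 decrease. With TMM within each assay, the medians were 0.38 for Degron TE, 0.91 for Degron mRNA and 0.23 for DDKK TE (0.225 before rounding), and 2 summed paralogs fell. DESeq2 gave TE medians of 0.29 for Degron and 0.23 for DDKK. With all 16 libraries in 1 fit, Degron TE had 1 decrease and a median of 0.42, Degron mRNA a median of 0.90, and DDKK TE 4 increases (RPL29, RPL34A, RPL36A and RPL37A) and a median of 0.29. Without YDR445C the median of DDKK TE was 0.29. At an adjusted p under 0.01, DDKK mRNA had 10 increases and DDKK footprints 39. The test of each pair as a whole called 3 pairs in Degron TE.

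With 1 culture left out, the median TE change ran from 0.25 to 0.28 in Degron cells and from 0.084 to 0.18 in DDKK cells, DDKK mRNA increases from 1 to 52, DDKK footprint increases from 9 to 79, pairs called in Degron TE from 1 to 2, and decreases of summed paralogs from 2 to 4.

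Nothing in the labels says that equal replicate numbers share a day or a batch, and the deviations of mutant and WT libraries with the same number correlated at 0.01 (mRNA) and -0.02 (footprints) in the Degron background and at 0.21 and 0.30 in the DDKK background. With 2 numbers a strain, this does not show that the numbers pair the cultures. Deviations of the mRNA and footprint libraries of the same cultures correlated at 0.03 (mutant) and 0.10 (WT) in the Degron background. In the DDKK background these values were 0.41 and 0.24. With a replicate block, DDKK mRNA had 71 increases, and the difference between backgrounds passed for 5 genes, RPL24A, RPL31A and RPP1A being added. With a replicate block by culture, which ties both libraries of 1 culture together, 1 gene rose in DDKK TE (RPL37A), 54 rose in Degron TE (RPL5, RPL12B and RPP2A being among those added), and 2 pairs were called in Degron TE.

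Values that passed no test in the report, and those of RPL4A and RPL4B, changed sign in some alternatives. Of these RPL22A, RPL25 and RPP2B passed as increases with scaling by library size. In Degron TE, scaling by library size gave RPL15A 0.14, RPL22A 0.24, RPL25 0.21, RPP0 0.20, RPP2B 0.24, RPL2B 0.11, RPL4A 0.021 and RPL4B 0.064. TMM within each assay gave RPL22A 0.060, RPL25 0.029, RPP0 0.016 and RPP2B 0.063. All 16 libraries gave RPL15A 0.0017, RPL22A 0.10, RPL25 0.070, RPP0 0.057 and RPP2B 0.10, and no filter gave RPL2A -0.0098. In Degron mRNA, RPL41A and RPL41B had -0.032 and -0.035 with scaling by library size, -0.077 and -0.080 with TMM within each assay and -0.087 and -0.090 in the fit of all 16 libraries, and DESeq2 gave RPL41B -0.0027.

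In DDKK TE, scaling by library size gave RPL12B 0.048, RPL13B 0.045, RPL15A 0.097, RPL17B 0.0047 and RPL31A 0.094. DESeq2 gave RPL12B 0.0046, RPL15A 0.053 and RPL31A 0.046, and TMM within each assay RPL12B 0.0042, RPL15A 0.051 and RPL31A 0.045. Without YDR445C the values were RPL3 0.0077, RPL11A 0.014, RPL11B 0.0083, RPL12B 0.073, RPL13B 0.062, RPL15A 0.12, RPL17B 0.017 and RPL31A 0.11. All 16 libraries gave RPL3 0.00083, RPL11A 0.0079, RPL11B 0.0019, RPL12B 0.066, RPL13B 0.055, RPL15A 0.11, RPL17B 0.011 and RPL31A 0.11.

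With 1 culture left out, Degron TE ran from -0.020 to 0.038 for RPL2A, -0.021 to 0.073 for RPL11B, -0.039 to 0.15 for RPL13B, -0.14 to 0.0071 for RPL22A and -0.20 to 0.070 for RPP2B, and Degron mRNA from -0.15 to 0.22 for RPL41A and -0.10 to 0.18 for RPL41B. DDKK TE ran from -0.47 to 0.15 for RPL3, -0.087 to 0.40 for RPL5, -0.074 to 0.14 for RPL10, -0.25 to 0.075 for RPL13B, -0.21 to 0.15 for RPL15A, -0.20 to 0.27 for RPL15B, -0.0068 to 0.24 for RPL17A, -0.089 to 0.041 for RPL31A, -0.0012 to 0.39 for RPP0, -0.074 to 0.13 for RPP1A and -0.072 to 0.27 for RPP1B.

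The lowest count of any of the 80 genes was 396 mRNA reads (RPL41A in a DDKK-background library), where counting error alone is a coefficient of variation of 0.05. The common coefficient of variation between cultures was 0.12 in the DDKK background and 0.05 in the Degron background. What part depth had in the precision was not tested.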
